A study of Mus musculus with 4 samples.

Results

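The Hox genes were followed here in embryonic mouse hearts labelled as a conditional knockout of Salvador (Sav1), a scaffold protein of the Hippo kinase cascade. Members were all genes with a single symbol in the array platform's probe table that are named Hox, a cluster letter a to d and a paralog number. This gave 37 genes of the 16675 tested: 10 in cluster a, 10 in cluster b, 8 in cluster c and 9 in cluster d. The study hybridised Cy5-labelled RNA from pooled whole hearts of C57BL/6 x 129 hybrid embryos at embryonic day 9.5 to one-colour arrays, 1 array per pool. There were 2 pools of control hearts, labelled wild-type, and 2 pools of Salv CKO hearts, the knockout. No source used here gives the Cre driver of the knockout or the number of hearts in a pool. The question behind the design was which genes respond to Hippo signalling while the heart forms.

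Hox genes encode homeodomain transcription factors that give cells their position along the head-to-tail axis. They lie in clusters, in the same order as the sequence of their expression, so that low paralog numbers are switched on early and far forward and high numbers late and towards the tail. Retinoic acid activates the low-numbered genes directly, and Polycomb proteins keep silent genes shut. In the forming heart, low-numbered Hox genes mark progenitors of the posterior second heart field, which build the inflow and outflow regions. Beating heart muscle of the chambers is not known for Hox expression, whereas hindbrain, spinal cord, neural crest, somites and gut next to the heart are.

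Sav1 read 755 and 629.9 in the controls and 582 and 562 in Salv CKO (normalised intensity, as everywhere below unless log2 is stated). Its log2 difference of -0.27 ± 0.13 was not called (limma adjusted p = 0.266), and as no source used here places the probe relative to the deleted part, it does not check the labels. Median deposited intensities lay between 71.1 and 101 over the 4 arrays of 29922 probes. Pearson's r on log2 values was 0.946 and 0.947 within the groups and 0.937 to 0.942 across them. All 21 measured heart muscle markers were above the background limit on every array, as the tissue label requires. That limit was an intensity of 16, and 24 Hox genes passed it on all 4 arrays, 9 on some and 4 on none. Differences are given on the log2 scale as Salv CKO less control, with limma's standard error and n = 2 pools per group. A gene was called, and is said to have risen or fallen, at a limma adjusted p under 0.05. The design text calls the pools biological replicates, and p-values measure the spread between them.

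Of the 37 Hox genes 11 rose and 0 fell in Salv CKO hearts. Over all genes tested, 4.92% were called higher and 5.70% lower. The risen genes were Hoxb1 to Hoxb6 and Hoxb9, Hoxd3 and Hoxd4, Hoxa7 and Hoxc6. Of these, 9 rose at least 2-fold, a size that 1.59% of all genes reached with a call. At an unadjusted p under 0.05, 14 Hox genes were higher and 2, Hoxa13 and Hoxc10, lower (12.5% and 14.2% of all genes). Both Salv CKO pools lay above both controls for 24 Hox genes and below both for 4, against 25.2% and 29.0% of all genes. The median difference was 0.76 over the Hox genes and -0.04 over all genes, and 0.40 over the 24 Hox genes above background on all arrays. With values below the background limit entered at the limit, the Hox median was 0.37.

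By cluster, 7 of 10 genes rose in b, 2 of 9 in d, 1 of 10 in a and 1 of 8 in c, with median differences of 1.49, 0.76, 0.32 and 0.12. With values below background entered at the limit these medians were 1.22, 0.35, 0.22 and 0.12. By paralog number, 4 of 7 genes of numbers 1 to 3, 6 of 15 of numbers 4 to 8 and 1 of 15 of numbers 9 to 13 rose. These were 57.1%, 40% and 6.67%, against 4.92% called higher over all genes. The median difference of these bands was 0.83, 1.59 and 0.03, and 0.83, 0.54 and 0 with values below background at the limit, so the order of the lower and middle bands depended on dim genes. In the middle band 14 of 15 genes had both Salv CKO pools above both controls, the exception being Hoxc4. Among numbers 9 to 13 the groups separated upwards for 5 genes, separated downwards for 4 and overlapped for 6. Over all genes 25.2% separated upwards and 29.0% downwards, so this band was near the shares of the array. The separated genes include some below background on all arrays, Hoxb8 in the middle band and Hoxa11 and Hoxc10 in the last. Whether clusters or bands differ from one another was not tested. For a single gene the smallest p an exact permutation test can give with 2 against 2 pools is 0.333, so each call depends on limma's pooling of spread over the array.

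**Figure D1:**
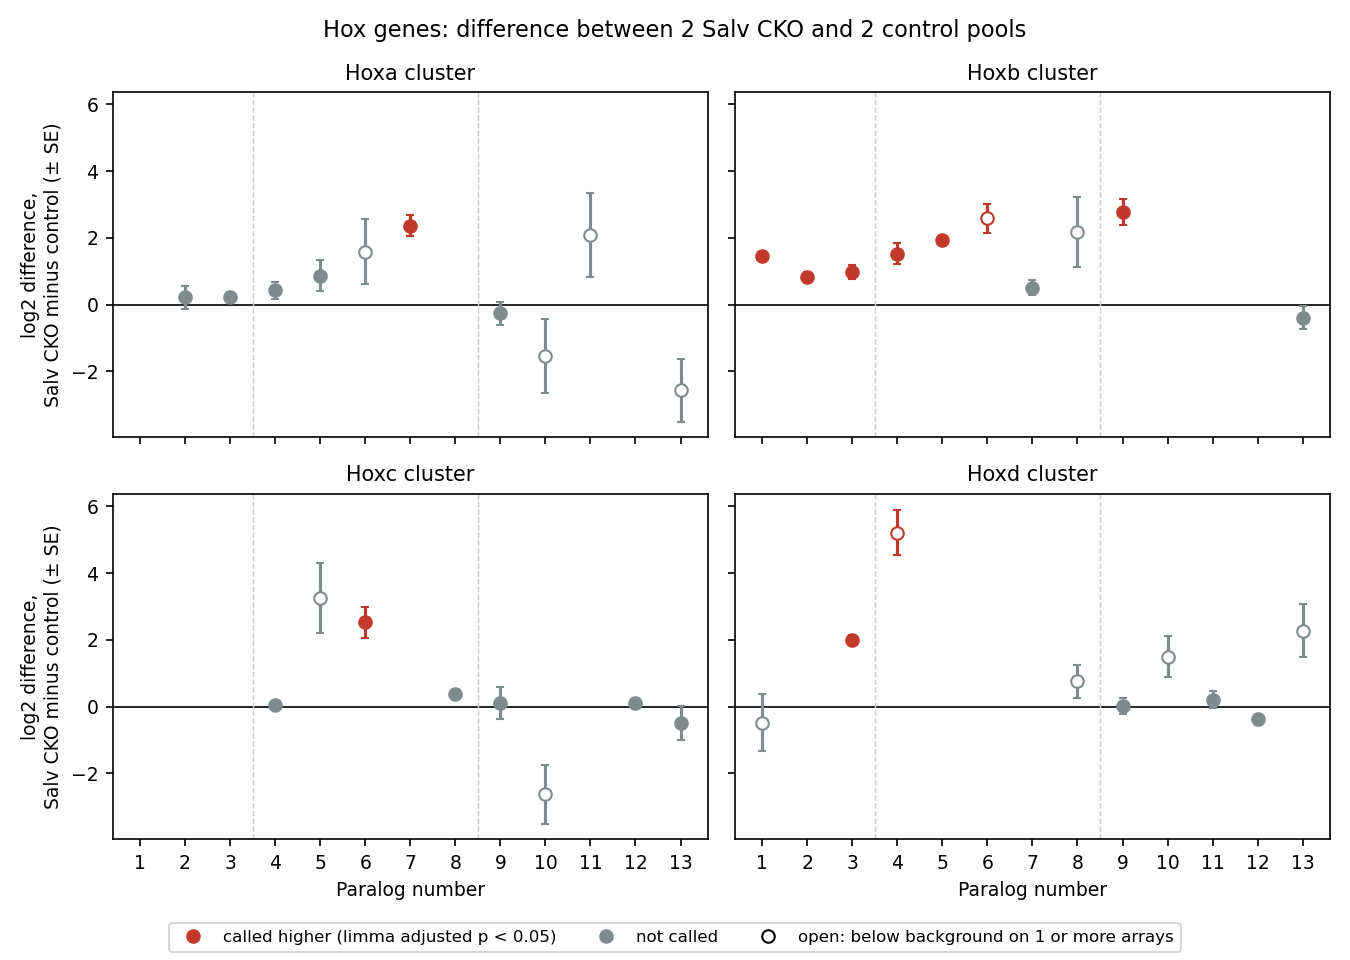
Difference of each Hox gene (log2, Salv CKO minus control, ± SE, n = 2 pools per group) against its paralog number, 1 panel per cluster, with called genes in red and open symbols for genes at or below background on at least 1 array. Red points fill the Hoxb panel from number 1 to 6, and most points right of the last dashed line, at numbers 9 to 13, are grey.

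As an aid to these values, the 250 bases before the transcription start of called genes are shown where the RefSeq promoter table (GRCm38.p6) holds them, which it does for 5 of the 11. It has no entry for Hoxb2, Hoxb3, Hoxb5, Hoxb6, Hoxb9 and Hoxc6. The stretches lie at chr11:96365508-96365757 (plus strand) for Hoxb1, chr11:96318017-96318266 (plus) for Hoxb4, chr2:74711743-74711992 (plus) for Hoxd3, chr2:74721728-74721977 (plus) for Hoxd4 and chr6:52218574-52218823 (minus) for Hoxa7. Capitals mark matches on either strand to TGATNNAT, the composite site of Pbx and Hox proteins, to AGGTCA, the repeat bound by retinoic acid receptors, and to the TATA box TATAAA.
Hoxb1: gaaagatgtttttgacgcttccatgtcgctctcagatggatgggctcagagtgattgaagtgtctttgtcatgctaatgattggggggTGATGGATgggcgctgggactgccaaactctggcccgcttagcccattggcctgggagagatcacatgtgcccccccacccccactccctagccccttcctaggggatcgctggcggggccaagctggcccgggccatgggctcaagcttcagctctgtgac
Hoxb4: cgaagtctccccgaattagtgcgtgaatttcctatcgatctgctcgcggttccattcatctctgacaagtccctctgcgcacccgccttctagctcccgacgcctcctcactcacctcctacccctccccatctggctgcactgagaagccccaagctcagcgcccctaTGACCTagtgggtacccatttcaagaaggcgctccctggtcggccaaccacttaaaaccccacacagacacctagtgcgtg
Hoxd3: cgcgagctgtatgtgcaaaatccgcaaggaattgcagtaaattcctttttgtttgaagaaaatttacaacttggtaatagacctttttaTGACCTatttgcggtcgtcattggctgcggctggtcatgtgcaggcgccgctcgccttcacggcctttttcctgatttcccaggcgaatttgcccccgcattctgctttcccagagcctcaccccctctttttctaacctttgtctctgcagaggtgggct
Hoxd4: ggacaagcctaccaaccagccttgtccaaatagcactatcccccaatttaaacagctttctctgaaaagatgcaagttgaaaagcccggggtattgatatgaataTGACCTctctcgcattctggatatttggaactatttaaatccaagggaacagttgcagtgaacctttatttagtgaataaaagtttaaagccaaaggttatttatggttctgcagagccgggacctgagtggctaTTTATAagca
Hoxa7: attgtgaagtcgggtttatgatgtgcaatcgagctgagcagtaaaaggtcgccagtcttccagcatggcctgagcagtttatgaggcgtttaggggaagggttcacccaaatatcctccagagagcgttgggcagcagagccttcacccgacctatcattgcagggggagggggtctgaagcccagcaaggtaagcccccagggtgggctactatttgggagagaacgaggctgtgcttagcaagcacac

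Hoxb1 held TGATGGAT, a form of the Pbx and Hox composite site; the regulation of Hoxb1 by its own protein through such sites is textbook knowledge. TGATNNAT was found in 4 of the 22 Hox genes in the table (Hoxa2, Hoxb1, Hoxb8 and Hoxd11) and in 7.69% of all 32841 promoters of that length. AGGTCA stood in Hoxb4, Hoxd3 and Hoxd4, which is 3 of the 5 called genes, in 3 of the 17 others (Hoxc4, Hoxd8 and Hoxd10), and in 14.03% of all promoters. TGACAG, bound by Meis and Pknox proteins, and GGAATG, bound by Tead factors, matched 0 of the 5 called genes. They matched 2 (Hoxa2 and Hoxa3) and 1 (Hoxa9) of the others, and 15.9% and 12.6% of all promoters. TATAAA stood in Hoxd4, on the opposite strand, in 3 other Hox genes and in 12.4% of all promoters. These matches describe letters in short windows and do not show binding.

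The Hoxb genes of hindbrain type came first in the cluster. Hoxb1, which sets the identity of a hindbrain segment and marks second heart field progenitors, read 416 and 375 in the controls and 1159.8 and 1005 in Salv CKO. Both Salv CKO pools were far above both controls, a 2.73-fold rise (1.45 ± 0.12, adjusted p = 0.00910). Hoxb2, a hindbrain gene that acts with Hoxb1 in the facial motor neurons, read 650.1 and 548 against 1143 and 981. It rose 1.77-fold, the smallest of the 11 rises (0.83 ± 0.14, adjusted p = 0.0290). Hoxb3, a gene of the posterior hindbrain and the pharyngeal arches, read 90.1 and 82.2 against 168 and 172, and rose 1.97-fold (0.98 ± 0.20, adjusted p = 0.0466). In all of these the groups were well separated, and the pools of a group lay close together.

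The middle of cluster b, active in the hindbrain-spinal cord border and in somites and lateral mesoderm of the neck and trunk, moved the same way. Hoxb4, also known from blood stem cells, read 38.1 and 45.0 in the controls and 99.3 and 143 in Salv CKO (2.88-fold, 1.52 ± 0.31, adjusted p = 0.0478). Hoxb5, a gene of lung and gut mesenchyme and enteric neurons, read 229.6 and 251 against 952 and 883, the Hox gene of lowest adjusted p (3.82-fold, 1.93 ± 0.12, adjusted p = 0.00661). Hoxb6, a gene of lateral mesoderm, read 11.8 and 21.2 against 103 and 89.2, so that 1 control pool was below background. Its fitted rise was 6.05-fold (2.60 ± 0.43, adjusted p = 0.0293), and 5.20-fold with that pool entered at the background limit. Hoxb1 to Hoxb6 thus formed an unbroken run of 6 called neighbours in the order of paralog numbers.

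The run ended at Hoxb7, which read 334 and 429 in the controls and 456 and 634 in Salv CKO. Its groups did not overlap, but the difference of 0.51 ± 0.22 was no larger than the spread allowed (adjusted p = 0.228). Hoxb8 was not above background on any array. Hoxb9, which patterns the ribs with its paralogs, read 70.1 and 35 against 403 and 286, a 6.86-fold rise (2.78 ± 0.40, adjusted p = 0.0213). The last gene of the cluster, Hoxb13, known from tail and prostate, read 45.9 and 40.6 against 35.7 and 30.4 (-0.39 ± 0.35, adjusted p = 0.550). Hoxb13 was thus the 1 gene of cluster b with both Salv CKO pools below both controls.

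Cluster d held the largest fold difference and, beside it, genes with little or none. Hoxd3, which shapes the first neck vertebrae, read 282 and 315 in the controls and 1299 and 1089 in Salv CKO (3.99-fold, 2.00 ± 0.14, adjusted p = 0.00717). Hoxd4, a retinoic acid responsive gene of hindbrain and neck, read 20.03 and 5.10 in the controls and 385 and 367 in Salv CKO. Control pool 1 was just above the background limit and control pool 2 well below it, while both Salv CKO pools were clearly detected. The fitted difference was 5.22 ± 0.69 (adjusted p = 0.0175), which is 37.2-fold, and 21.0-fold with the control pool below background entered at the limit. In RefSeq the span of Hoxd3 overlaps Hoxd4 and that of Hoxb3 overlaps Hoxb4, and no source used here places the probes, so shared transcripts cannot be told apart from separate rises.

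Of the remaining Hoxd genes none was called. Hoxd1 was above background, narrowly, in 1 control pool alone. Hoxd8 read 14.7 and 10.9 in the controls, both below background, and 20.3 and 22.7 in Salv CKO (adjusted p = 0.412). With the controls entered at the limit its fold was 1.34. Hoxd10 read 5.10 and 10.2 against 19.1 and 21.7, a fold of 1.27 with the controls at the limit (adjusted p = 0.214). Both stood only just above the limit in Salv CKO, so these folds are small and, with noise in the readings, no lower bounds. Hoxd13, a gene of digits and hindgut, read 7.50 and 32.3 against 95.9 and 58.8. Its difference of 2.27 ± 0.79 did not pass (adjusted p = 0.152), and 1 of its control pools was below background. Hoxd9 (0.03 ± 0.23), Hoxd11 (0.21 ± 0.25) and Hoxd12 (-0.38 ± 0.17) had adjusted p of 0.961, 0.651 and 0.245.

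In cluster a only Hoxa7 passed. Hoxa7, a gene of the trunk, read 21.7 and 28.97 in the controls and 137 and 121 in Salv CKO, 5.13-fold higher (2.36 ± 0.32, adjusted p = 0.0184). Hoxa3, needed for thymus, parathyroid and the carotid arteries, read 150.3 and 163 against 184 and 179.8 (0.22 ± 0.17, adjusted p = 0.496). Hoxa4 gave 0.43 ± 0.25 and Hoxa5, a gene of the lung and neck, 0.86 ± 0.47 (adjusted p = 0.358 and 0.325). Hoxa6 read 3.42 and 20.3 against 21.2 and 29.4 (1.59 ± 0.97, adjusted p = 0.381), with 1 control pool below background, and the difference was 0.47 with that pool at the limit. For these 4 genes both Salv CKO pools were above both controls, yet by less than the test required. Hoxa9 read 92.04 and 159 against 90.1 and 112 and its groups overlapped (-0.26 ± 0.34, adjusted p = 0.682). Hoxa10 and Hoxa11, which pattern the limb and the lower trunk, were not above background on any array. Hoxa13 was above it in 1 control pool alone, at 18.1.

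In cluster c, Hoxc6, which marks the border of neck and thorax, read 39.4 and 100.9 in the controls and 374 and 355 in Salv CKO. The control pools differed by more than 2-fold, and still both lay far below the Salv CKO pools (5.79-fold, 2.53 ± 0.47, adjusted p = 0.0369). Hoxc5 was below background in both controls, at 6.07 and at the floor, and read 26.8 and 20.3 in Salv CKO. With the controls entered at the limit the fold was 1.46, and Hoxc5 was not called (adjusted p = 0.130). Hoxc8, a gene of the thorax and of brachial motor neurons, read 422 and 366 against 523 and 494 (0.37 ± 0.13, adjusted p = 0.150). Hoxc9 gave 0.12 ± 0.49 with control pools of 43.0 and 104 (adjusted p = 0.913). Hoxc12, the brightest of the Hox genes, read 1978 and 1905 against 2190 and 2032 (0.12 ± 0.08, adjusted p = 0.425). Hoxc13, a gene of hair and nails, gave -0.50 ± 0.51 (adjusted p = 0.597), and Hoxc10 was not above background on any array.

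**Figure D2:**
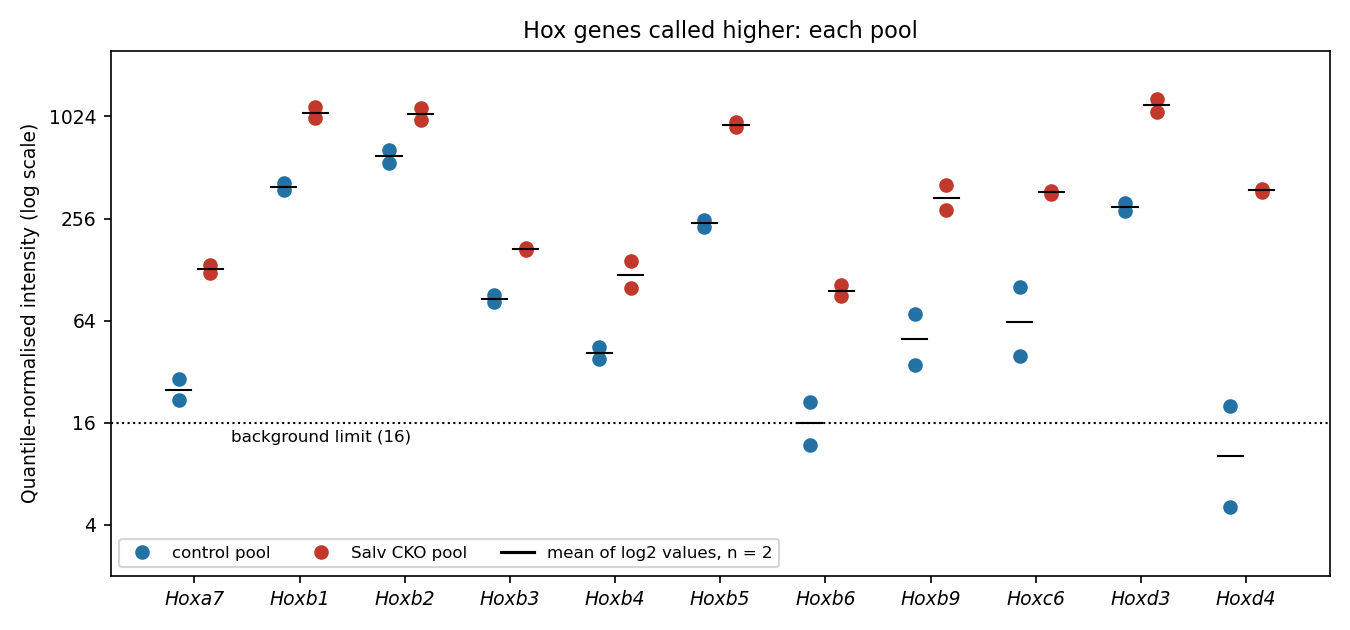
Quantile-normalised intensity (log axis) of the 11 called Hox genes in each control pool (blue) and each Salv CKO pool (red), with black bars at the mean of the log2 values and the background limit of 16 dotted. No control point reaches a Salv CKO point of the same gene, and control points of Hoxb6 and Hoxd4 fall below the limit.

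Several probes were present for 8 Hox genes, and for some of them the choice of probe set the result. Values above are from the brightest probe. When all 29922 probes were tested as separate features, 3.36% were called higher and 2.94% lower. The brightest Hoxa2 probe read 73.4 and 124 in the controls and 101 and 123 in Salv CKO, with overlapping groups (0.22 ± 0.33). The other Hoxa2 probe read 26.5 and 23.6 against 171 and 205.1, a 7.48-fold rise (2.90 ± 0.27, adjusted p = 0.0149 among all probes). Hoxa2, which specifies the second pharyngeal arch, therefore passed on 1 probe and not on the other.

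Hoxc4 showed the same split. Its brightest probe read 1306 and 1434 against 1482 and 1356 (0.05 ± 0.10), while its other probe read 245 and 262 against 475 and 437 and rose 1.80-fold (0.85 ± 0.12, adjusted p = 0.0312 among all probes). The second Hoxa7 probe, near background at 16.4 to 23.6 on all arrays, gave -0.05 ± 0.51 and did not show the rise of the first. For Hoxb3 both probes had Salv CKO above control, but neither was called among all probes (adjusted p = 0.0569 and 0.335). In that fit 8 of the 11 brightest probes kept their call, without Hoxb3, Hoxb4 and Hoxc6. The other probes of Hoxa9, Hoxb13, Hoxc8 and Hoxd11 were not called, and Hoxc8's second probe was below background on all arrays. Which transcripts the probes of a gene detect was not tested.

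**Figure D3:**
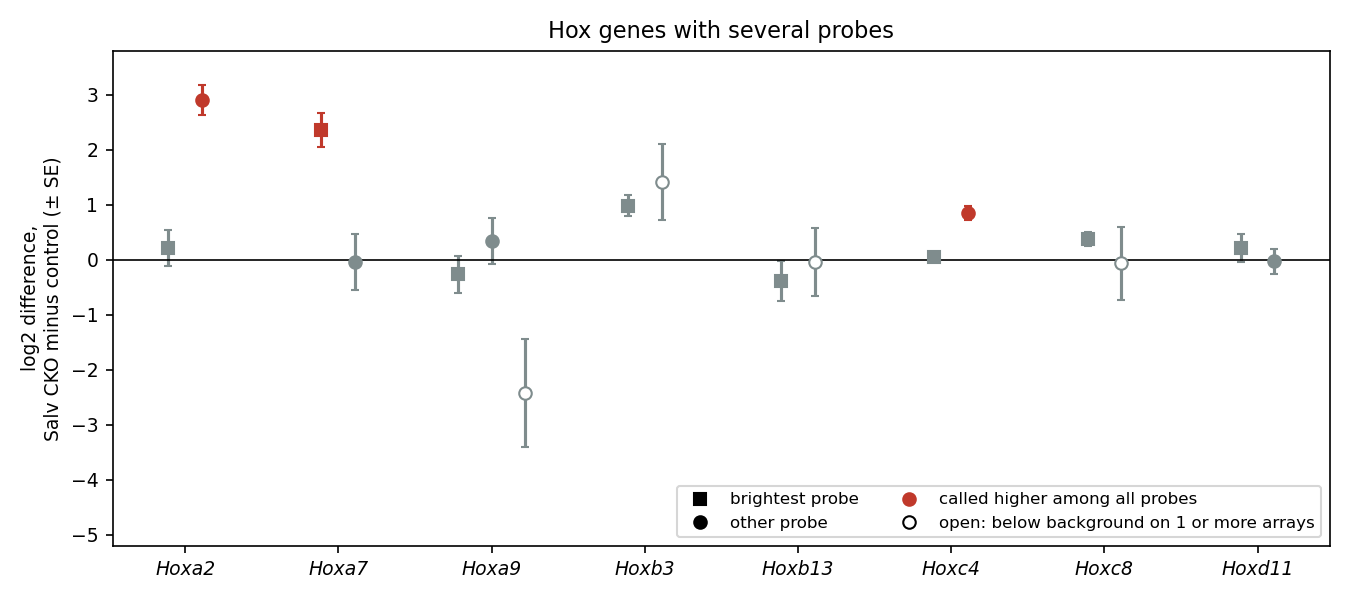
Difference (log2, Salv CKO minus control, ± SE, n = 2 pools per group) of every probe of the 8 Hox genes with several probes, squares for the brightest probe and circles for others, red where called among all probes. For Hoxa2 and Hoxc4 the other probe is red and the square is grey, and for Hoxa7 it is the reverse.

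Genes that work with or upstream of Hox genes were examined next. Of 8 measured TALE cofactors, the Meis, Pbx and Pknox proteins that bind DNA beside Hox proteins, 0 were called by limma, with 1 higher and 0 lower at an unadjusted p under 0.05. That gene was Pknox2 (0.83 ± 0.25, adjusted p = 0.117), and the list's median was 0.10. At that unadjusted p 12.5% of all genes were higher and 14.2% lower. Of 21 upstream regulators 3 rose and 0 fell, where 4.92% of all genes were called higher and 5.70% lower. At an unadjusted p under 0.05, 5 of these regulators were higher and 1 lower. Aldh1a2, the enzyme that makes retinoic acid in the embryo, read 319 and 325 in the controls and 947 and 1027 in Salv CKO (3.06-fold, 1.61 ± 0.11, adjusted p = 0.00694). Gbx2, a transcription factor of the anterior hindbrain and pharyngeal region, rose 3.27-fold (1.71 ± 0.29), and the nuclear receptor Nr6a1 1.68-fold (0.75 ± 0.13). Cdx1, Cyp26b1, Egr2 and Wnt3a were not above background on any array.

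Of 22 Polycomb and trithorax genes, which silence and maintain Hox expression, 3 rose and 2 fell, with a median of 0.01. Over all genes 4.92% were called higher and 5.70% lower. At an unadjusted p under 0.05, 4 of the list were higher and 4 lower, where 12.5% and 14.2% of all genes were. The Polycomb subunit Eed rose by 0.65 ± 0.08, the demethylase Utx (Kdm6a) by 0.66 ± 0.11, and Ring1 fell by 0.52 ± 0.10 on the log2 scale. With each array centred on its median, 0 of this list rose and 3 fell, where 2.26% of all genes rose and 7.87% fell. With the values as deposited 0 rose and 7 fell, where 1.37% of all genes rose and 18.6% fell. Of 16 genes that flank the clusters 0 were called by limma, with 1 higher and 0 lower at an unadjusted p under 0.05. That gene was Skap1, beside cluster b, which read 12.8 and 46.2 against 92.3 and 80.8 (1.83 ± 0.67, adjusted p = 0.168). The list's median, over genes beside all clusters, was -0.07, next to 0.76 for all Hox genes. The medians of clusters b, d, a and c were 1.49, 0.76, 0.32 and 0.12.

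Some markers of tissues around the heart also rose in the Salv CKO pools. Beside each count of called genes below stand the 4.92% of all genes called higher and the 5.70% called lower. For counts at an unadjusted p under 0.05 the shares of all genes are 12.5% higher and 14.2% lower. Of 22 hindbrain and spinal cord markers 6 rose, 0 fell and 16 were not called, with 2 lower at an unadjusted p under 0.05. Neurog2, Sox2 and Hes5 had the largest called differences (4.40, 3.71 and 2.83). The summed intensity of all 22 markers went from 7919 and 9062 in the controls to 11891 and 12193 in Salv CKO. Without Sox2 the sums were 7781 and 8965 against 10204 and 10850. Egr2 alone was below background on all arrays. Of 16 neural crest markers 7 rose, 0 fell and 9 were not called, with sums of 25504 and 25659 against 65995 and 65102. Most of that sum was Crabp1, named after its values were seen, at 13518 and 13262 against 47334 and 47334; without it the sums were 11986 and 12397 against 18661 and 17768. The called crest genes with the largest differences were Tcfap2b (Tfap2b), Sox10 and Pax3 (2.73, 2.57 and 2.14), and Dlx5 and Foxd3 were below background throughout. Of 15 somite markers 3 rose, 0 fell and 12 were not called, with 2 lower at an unadjusted p under 0.05. The risen genes were Tcf15, Meox1 and Uncx (3.08, 2.50 and 2.41). The somite sums were 1549 and 1489 against 4510 and 4736, and 1161 and 1156 against 1440 and 1737 without Tcf15, with Myf5 below background. Of 17 pharyngeal and gut endoderm markers 8 rose, 0 fell and 9 were not called, with 2 lower at an unadjusted p under 0.05, sums of 9768 and 8974 against 16496 and 16104 and none below background. Nkx2-3, Rbp4 and Afp had the largest called differences (4.18, 2.31 and 1.56).

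Other marker lists stood elsewhere. For their counts at an unadjusted p under 0.05, the shares of all genes are 12.5% higher and 14.2% lower. Of 13 genes of the fore- and midbrain, where Hox genes are silent, 0 were called by limma, with 1 higher and 0 lower at an unadjusted p under 0.05. Their median was -0.04, their sums 1452 and 1565 against 1658 and 1681, and Emx1, Emx2, En1, Hesx1 and Six6 were below background on all arrays. Without Otx2 the sums overlapped, at 1336 and 1486 against 1454 and 1477. The gene of lowest p was Otx2 (1.09 ± 0.26, adjusted p = 0.0635). With each array divided by its 75th percentile, 1 gene of this list was called higher (4.94% of all genes) and the median was 0.085. Of 16 limb bud and body wall markers 0 were called by limma, with 4 higher and 0 lower at an unadjusted p under 0.05, led by Shh (0.46 ± 0.10, adjusted p = 0.0543). Their sums were 15199 and 14941 against 17287 and 17231, with Emx2 below background. Without Msx2, named after its values were seen, the sums were 10880 and 10950 against 10935 and 11889. With each array centred on its median 1 limb bud marker was called lower, and with the values as deposited 2 were. The shares of all genes called lower were then 7.87% and 18.6%. Of 15 tail bud markers 1, Dll3, rose (1.54 ± 0.14) and 1, Rspo3, fell (by 0.43 ± 0.08). Such counts are near the 4.92% and 5.70% of all genes called higher and lower. The tail bud sums were 3192 and 3321 against 3169 and 3454, with Wnt3a below background.

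Nearer to the heart, of 15 markers of the posterior second heart field and inflow region other than Hox genes, 4 rose and 0 fell. The shares called higher and lower over all genes were 4.92% and 5.70%. At an unadjusted p under 0.05, 5 of this list were higher and 1, Wnt2, lower (12.5% and 14.2% of all genes). Wnt2, named after its values were seen, gave -0.59 ± 0.15 (limma adjusted p = 0.078). Among the called genes Foxf1a (Foxf1), Foxf2 and Osr1 had the largest differences (1.59 ± 0.14, 1.36 ± 0.15 and 0.49 ± 0.08), and the sums were 21469 and 22148 against 22758 and 23945. Hcn4, Nr2f1, Nr2f2, Tcf21 and Wt1 were below background on all arrays. With each array centred on its median 2 of this list rose and 2 fell (2.26% and 7.87% of all genes). Of 21 heart muscle markers 11 fell and 0 rose, including Nkx2-5, Ttn and Pln (-1.61, -1.41 and -1.36), and their sums were 552849 and 593668 against 482390 and 489655. For 8 of them the deposited intensity was within 5% of the array's highest value on at least 1 array. In these bulk pools, fewer cells of a type and less RNA per cell cannot be told apart. With the values as deposited, 2 hindbrain and spinal cord markers and 1 endoderm marker were called lower, where 18.6% of all genes were. With division by the 75th percentile 2 heart muscle markers were called higher, where 4.94% of all genes were. The part of these tissues in the Hox values was not tested.

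**Figure D4:**
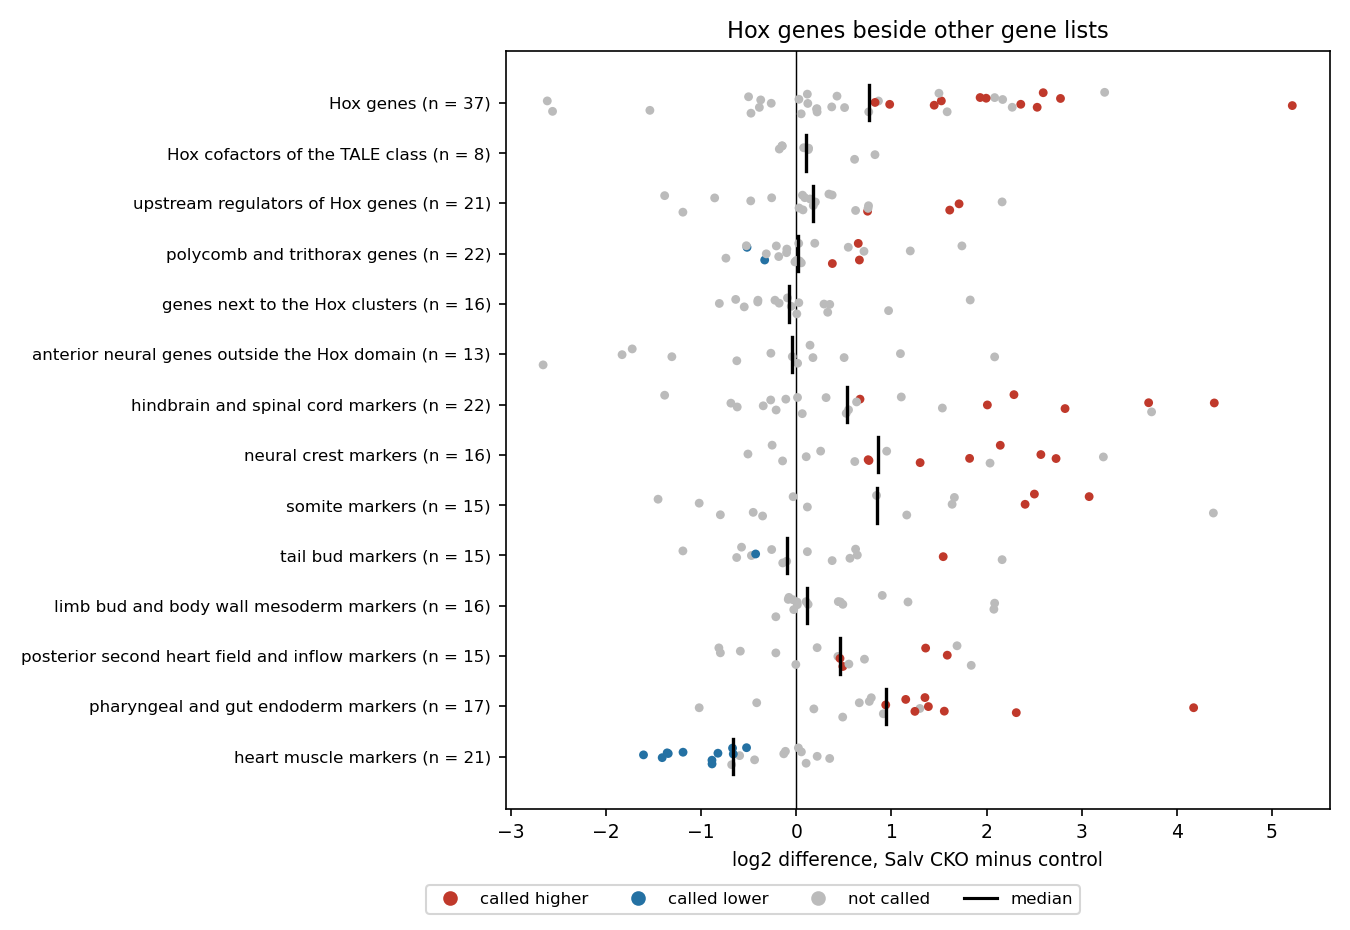
Difference of each gene (log2, Salv CKO minus control; red called higher, blue called lower, grey not called) for the Hox genes and the 13 other lists, with the median of each list as a black bar. The Hox row holds no blue point and extends furthest to the right, through Hoxd4, which had a control pool below background. With that pool at the limit Hoxd4 is at 4.39, next to 4.40 for Neurog2. The Hox median of 0.76 lies between those of the hindbrain and spinal cord list and the neural crest list. It is 0.37 with values below background at the limit, a bound not applied to the other lists.

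All 11 risen genes were above 0 under each of the 16 alternative settings. They were picked by their call on these same arrays, so this shared sign was largely set in advance. Their calls were not as stable. With each array centred on its median or with the values as deposited, the median over all genes moved to -0.14 and -0.41, and 8 of the 11 kept the call, without Hoxb2, Hoxb3 and Hoxb4. Of all 37 Hox genes, 29 had a difference above 0, against 26 with median centring and 21 with the values as deposited. With any 1 pool left out no gene of the array passed (limma adjusted p of 0.189 to 0.299 for the 11 genes), nor did one in a fit without the intensity trend (0.12 to 0.162). Fits with 1 pool left out reuse arrays that picked these genes, so they are no separate support for them. The fold of Hoxc6 was 3.61 without control pool 1 and 9.27 without control pool 2, and that of Hoxd4 23.5 and 18.8 with values below background at the limit.

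**Figure D5:**
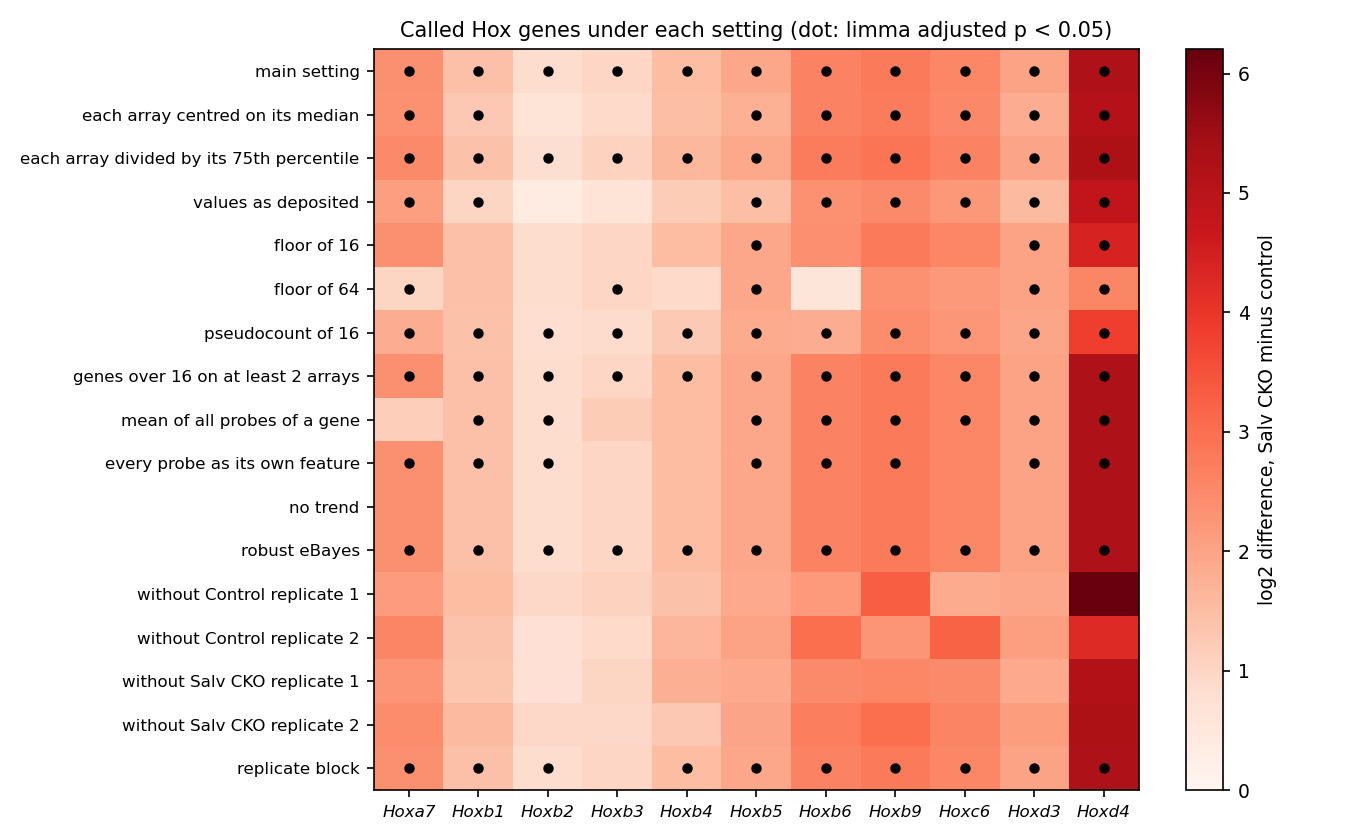
Difference (log2, Salv CKO minus control, colour scale) of the 11 called Hox genes under the main setting and 16 alternatives, with a dot where the limma adjusted p was under 0.05. Hoxb5, Hoxd3 and Hoxd4 keep a dot in every row except the 4 rows without a pool and the row without a trend, which hold none.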

How the data were processed

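Per the labels, total RNA of pooled hearts was amplified with amino-allyl nucleotides and coupled to Cy5. The authors' deposited values are linear probe intensities of 4 arrays, background-subtracted as some lie below 0; no source used here names the scanner or software. They were quantile normalised (limma 3.58.1, R 4.3.3), floored at 1 and put on the log2 scale. A probe counted as above background over 16, about 3 times the noise read from values below 0 (SD 4.36 to 6.28).

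The platform table (2013) gave 1 symbol for 21020 of 29922 probes and none for 8902; the brightest probe stood for a gene. It names no genome build, so genes carry no coordinates. RefSeq (GRCm38.p6) supplied promoters for 22 Hox genes, gene order and older symbols.

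All 16675 genes were fitted with limma (lmFit, eBayes with an intensity trend, two-sided, Benjamini-Hochberg at 0.05); the procedure was tested on simulated data. Folds at the limit enter values below 16 at 16. Of the 13 other lists, 206 of 222 genes were measured. From each, up to 3 called genes of largest difference are named, or else the gene of lowest p. Members and lists were chosen with earlier results of these data known.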

Additional observations from a re-analysis of the deposited data

How the results depend on the processing

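The count of 11 Hox genes higher and 0 lower, 821 of all genes higher and 951 lower, and the median Hox difference of 0.76 were recomputed under 16 alternatives. Hox genes higher numbered 3 with a floor of 16, 5 with a floor of 64 and 0 with no trend; these floors give dim genes identical values. All genes higher and lower numbered 253 and 228 (floor 16), 257 and 234 (floor 64) and 0 and 0 (no trend; 1681 and 1897 at an unadjusted p under 0.05). With each array centred on its median 377 genes were higher (22.3% of calls, against 46.3%), and with the values as deposited 229 were higher and 3101 lower (6.88%). The median Hox difference was 0.64 with median centring, 0.37 as deposited, 0.37 with a floor of 16, 0.12 with a floor of 64 and 0.39 with a pseudocount of 16. Leaving out each pool gave 0 Hox genes higher (11 to 15 at an unadjusted p under 0.05), 0 genes of the array either way (1378 to 1717 higher and 1633 to 1926 lower at that p) and medians of 0.63 to 0.72. A lone pool is then assumed to vary like the other group. By mean of all probes 9 Hox genes were higher, gaining Hoxa2 and losing Hoxa7, Hoxb3 and Hoxb4. Replicate numbers are shared by label only. Same-numbered pools' deviations correlated at 0.170 over 12402 genes, and a replicate block gave 10 Hox genes higher, losing Hoxb3 (adjusted p = 0.0554). Signal limits the 13 Hox genes at or below background on some array.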
